A study of Mus musculus with 3 samples.

Results

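The mRNAs of 10 integrin subunits that lie outside the classical fibronectin receptors were examined in the murine stromal line ST2, which derives from bone marrow. The members were taken by gene name, and all 10 were found once each among the 51826 rows of the expression table. They were Itga1, Itga2, Itga10 and Itga11, whose products bind collagens, Itga3, Itga6, Itga7 and Itgb4, whose products bind laminins, and Itga9 and Itgb7, whose products bind other ligands. Polyadenylated RNA was sequenced in 3 libraries, 1 per group. Control cells received empty vector with control siRNA, NELL2-overexpressing cells received the NELL2 expression construct with control siRNA, and Fn1 knockdown cells received empty vector with siRNA against Fn1. The siRNA was used at 30 nM. The comparisons asked which genes differ when NELL2, a secreted glycoprotein, is raised or when its binding partner fibronectin 1 is lowered. With 1 library in each group there was no replicate check, no test between conditions was possible, and all differences described are those between single libraries. The number of cultures behind a library was not stated.

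Integrins are receptors on the cell surface made of 1 alpha and 1 beta subunit. They hold the cell to its matrix and pass signals in both directions across the membrane. The alpha subunit largely sets the ligand. The alpha1, alpha2, alpha10 and alpha11 chains pair with beta1 and carry an inserted domain that grips collagen through a bound metal ion. The alpha3, alpha6 and alpha7 chains pair with beta1 and bind laminins of basement membranes, and alpha6 can pair instead with beta4, which anchors keratin filaments in the hemidesmosomes of epithelia. The alpha9 chain pairs with beta1 and recognises tenascin-C, osteopontin and an alternatively spliced segment of cellular fibronectin. The beta7 chain belongs to leukocytes, where with alpha4 or alphaE it guides homing to gut and epithelium. In bone marrow stroma, collagen and laminin receptors attach progenitor cells to the matrix that they deposit.

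A stretch that the collagen-binding chains share can be read in their coding sequence. The stretch below lies at the metal ion site of the inserted domain. It was read from GENCODE M21 transcripts (GRCm38) and is shown because all 4 collagen-binding members hold it. Capitals mark the 8 codons for aspartate, any residue, serine, asparagine, serine, isoleucine, tyrosine and proline. Each stretch lay within a single coding exon.
Itga1 (chr13:115030096-115030137, minus strand): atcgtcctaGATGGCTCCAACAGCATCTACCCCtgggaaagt
Itga2 (chr13:114880609-114880650, minus strand): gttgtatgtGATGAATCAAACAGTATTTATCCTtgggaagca
Itga10 (chr3:96649058-96649099, plus strand): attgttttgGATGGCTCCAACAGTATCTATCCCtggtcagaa
Itga11 (chr9:62735295-62735336, plus strand): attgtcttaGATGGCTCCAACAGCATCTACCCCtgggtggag

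Of 21877 genes with a coding transcript, 4 (0.0183%) coded for this run of residues, and they were the 4 collagen-binding members. The pattern searched is a run that these 4 share, so finding them was fixed by its choice. Shorter patterns were not searched, so the count does not show that a metal ion site is particular to these chains. A second stretch was shared across roles. It codes for the segment just inside the membrane, where the alpha tail meets the beta tail, and it crossed a junction between 2 exons in every member shown. Capitals mark the codons for glycine and a pair of phenylalanines, searched as tryptophan, lysine and any residue followed by these 3. The coordinates include the intron.
Itga1 (chr13:114960114-114965603, minus strand): tggaagattGGATTCTTCaaaaggcca
Itga2 (chr13:114836545-114837098, minus strand): tggaagctcGGCTTCTTCaaaagacaa
Itga10 (chr3:96662703-96662985, plus strand): tggaagcttGGCTTCTTTacccgtaag
Itga11 (chr9:62782044-62782648, plus strand): tggaagctcGGTTTTTTTaaaagtgcc
Itga3 (chr11:95046570-95046926, minus strand): tggaagtgcGGCTTCTTCaagcgagcc
Itga6 (chr2:71849501-71855874, plus strand): tggaagtgtGGATTCTTTaagcgctct
Itga7 (chr10:128954066-128957641, plus strand): tggaagctgGGATTCTTCaagcgggcg
Itga9 (chr9:118887878-118897254, plus strand): tggaagatgGGCTTCTTCcgcagaagg

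All 8 alpha members held it, as did 3 other integrin subunits and 2 genes outside the family, Gm20671 and Pisd, of the 21877 searched (0.0594%). Neither beta member held either stretch. Itgb4 codes for 1818 residues in its longest coding transcript, against 806 for Itgb7 and 798 for Itgb1, and the extra length of beta4 is known to be its long tail inside the cell. Itga1 and Itga2 are neighbours on chromosome 13, with 20995 bases between them. Both are transcribed from the minus strand.

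Levels are given as FPKM, the fragments counted for a gene divided by transcript length and by all mapped fragments, as deposited. FPKM is a level per length, so genes can be set side by side within a library. The depth, read from the lowest values, was about 23000000 fragments in the control library, 23700000 in that with NELL2 overexpressed and 24200000 in that with Fn1 silenced. The targeted genes moved as labelled. Nell2 was at 0.640 FPKM in the control and 326 FPKM with the construct, and Fn1 was at 2802 FPKM in the control and 137 FPKM after knockdown. All 8 stromal markers (such as Col1a1, Pdgfrb and Thy1) reached 1 FPKM in every library, and their summed level was between 3364 and 3711 FPKM. Of 7 epithelial and 6 muscle markers none reached 1 FPKM in any library, of 8 haematopoietic markers only Csf1r did (1.06 to 1.23 FPKM), and of 5 endothelial markers only Kdr did, at 1.33 FPKM after Fn1 knockdown. In such bulk RNA, fewer cells carrying a transcript and less of it per cell cannot be told apart.

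Among the members, the collagen receptor chain Itga11 and the laminin receptor chain Itga3 stood first and second in all 3 libraries. Itga11 was at 29.7 FPKM in control cells, 32.2 FPKM under NELL2 overexpression and 29.1 FPKM under Fn1 knockdown. Itga3 was at 20.5, 18.0 and 21.5 FPKM in the same order. No other member reached 8 FPKM, and 6 lay between 1.46 and 7.62 FPKM in every library. In the control these were, from high to low, Itga6, Itga1, Itgb7, Itga9, Itga7 and Itga10. From Itga1 to Itga10 each neighbour in this order overlapped the next within its 95% counting interval, so neighbours among these 5 were not resolved at this depth, whereas Itga1 lay clear of Itga9, Itga7 and Itga10, and Itgb7 clear of Itga7 and Itga10. Itgb4 and Itga2 stayed below 1 FPKM in every library. The intervals here and below are exact Poisson or binomial intervals on fragments estimated from FPKM, transcript length and depth. They cover counting error and not the spread between cultures, which was not measured.

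**Figure D1:**
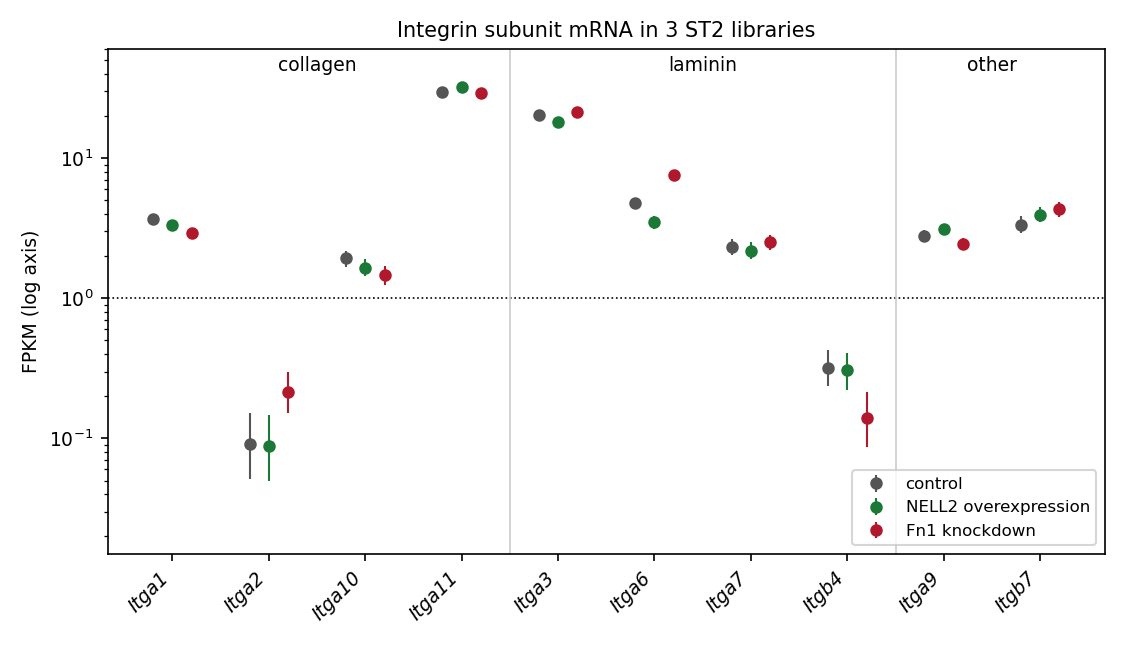
FPKM (log axis) of the 10 integrin subunits, grouped by ligand, in control, NELL2-overexpressing and Fn1 knockdown cells; points are single libraries, bars are 95% counting intervals and the dotted line is at 1 FPKM. Itga11 and Itga3 sit highest in all libraries, Itga2 and Itgb4 lie below the line, and Itga6 is lowest with NELL2 overexpression (3.51 FPKM) and highest after Fn1 knockdown (7.62 FPKM).

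No member passed the rule for a called gene, which was a difference of 1 or more in log2(FPKM + 1), a 2-fold change on that scale, and a level of at least 1 FPKM in at least 1 of the libraries compared. The 8 members that reached 1 FPKM gave 0 calls with NELL2 overexpression, where 0.652% of 12572 genes were called, and 0 calls after Fn1 knockdown, where 1.23% of 12574 genes were called. At a 1.5-fold change, which 2.59% and 6.24% of genes passed, the count of members was 0 again in both comparisons. Itga6 after Fn1 knockdown lay just short of 1.5-fold on this scale, at a log2 ratio of 0.58, and past it on plain FPKM, at a ratio of 1.59. With so few members, either background share would give fewer than 1 call. The median log2 ratio of the 8 members was -0.087 with NELL2 overexpression, beside 0.0072 over all genes tested, with 3 members higher and 5 lower. After Fn1 knockdown it was 0.017, beside -0.0028 over all genes, with 4 higher and 4 lower. The comparisons share the control library, so their values are given side by side and not related to each other.

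**Figure D2:**
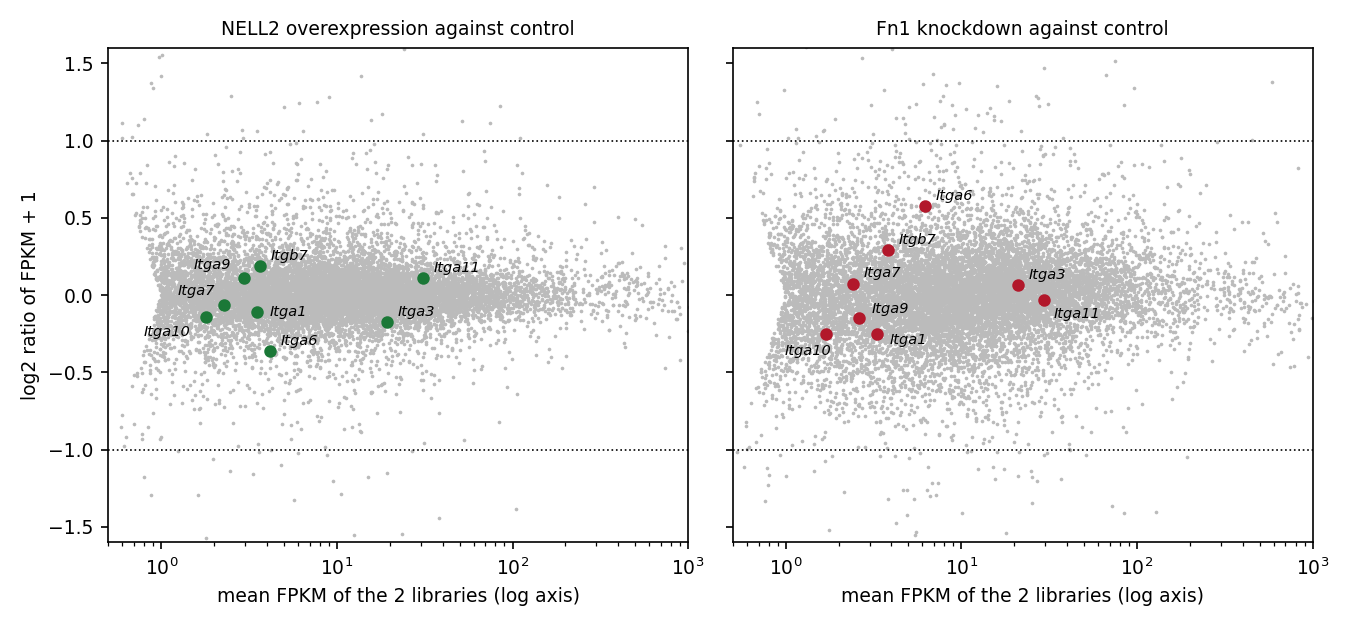
Log2 ratio of FPKM + 1 against the mean FPKM of both libraries (log axis) for every gene at 1 FPKM or more in either library (grey) and for the 8 members that reached it (coloured, named), with NELL2 overexpression on the left and Fn1 knockdown on the right; dotted lines mark 2-fold, and 62 and 71 genes fall outside the axes. All members lie inside the lines, and Itga6 is the member farthest from 0 in both panels, at -0.36 and 0.58.

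Among the 8 members at 1 FPKM or more, Itga6 lay farthest from the control in both comparisons. On plain FPKM the scarce Itga2 and Itgb4 lay farther from it after Fn1 knockdown. Itga6 codes for the chain that forms the laminin receptors alpha6beta1 and alpha6beta4 and is a marker of epithelial and other progenitor cells. It was at 4.78 FPKM in control cells, 3.51 FPKM under NELL2 overexpression and 7.62 FPKM under Fn1 knockdown, from about 474, 358 and 794 fragments. The control thus lay between the other libraries, and none of the 3 counting intervals overlapped. The ratio to the control was 0.733 with NELL2 overexpression (95% counting interval 0.636 to 0.840) and 1.59 after Fn1 knockdown (1.42 to 1.79). On the FPKM + 1 scale these were log2 ratios of -0.36 and 0.58. Differences of that size were not rare in these libraries. With NELL2 overexpression 7.79% of all genes tested were at least as far from the control in either direction, and 8.59% of the 4016 genes within 2-fold of its mean FPKM. After Fn1 knockdown the shares were 6.54% and, of 4590 genes, 7.25%. No exon of Itga6 (ENSMUSG00000027111.15, GRCm38 chr2:71745616-71858416, plus strand) overlaps another annotated gene.

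The other laminin-binding alpha chains lay closer to the control than Itga6 in each comparison. Itga3, the subunit of a receptor for laminins of epithelial and vascular basement membranes, was at 20.5 FPKM in control cells, 18.0 FPKM under NELL2 overexpression and 21.5 FPKM under Fn1 knockdown. Its ratio to the control was 0.879 (0.828 to 0.933) in the first comparison and 1.05 (0.989 to 1.11) in the second, so only the first differed beyond counting error. Itga7, the main laminin receptor chain of skeletal muscle, was at 2.33, 2.19 and 2.51 FPKM. Its gene (chr10:128933818-128958282, plus strand) overlaps exons of Mettl7b on the opposite strand, which was at 0.102 FPKM or less. Neither ratio of Itga7, 0.938 (0.774 to 1.14) and 1.07 (0.894 to 1.30), left counting error. The summed level of 6 muscle markers was 0.503, 0.741 and 0.304 FPKM. Of the 3 alpha chains in this role, 3 were lower with NELL2 overexpression (median log2 ratio -0.18), beside 6000 of 12572 genes lower overall. After Fn1 knockdown 3 were higher (median 0.074), beside 6230 of 12574 genes higher overall. Itga7 in both comparisons and Itga3 after Fn1 knockdown lay within counting error, so their directions were not resolved.

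Itgb4 (chr11:115974709-116008412, plus strand) was scarce. It was at 0.320 FPKM in control cells, 0.307 FPKM under NELL2 overexpression and 0.139 FPKM under Fn1 knockdown, from about 46, 45 and 21 fragments. No difference between the control and NELL2 overexpression libraries was resolved at this depth (ratio 0.959, 0.614 to 1.46), and the Fn1 knockdown library was lower (ratio 0.434, 0.246 to 0.742), but the gene lies below the level at which genes were tested. Of 7 hemidesmosome genes on the list, 4 reached 1 FPKM, led by Cd151, Plec and Erbin at 95.5, 65.0 and 28.1 FPKM in the control. The fourth, Dst, which codes for dystonin, was at 14.4, 21.7 and 17.6 FPKM, with a log2 ratio of 0.56 with NELL2 overexpression that no other gene of the list exceeded. The rest of the list stayed below 1 FPKM. Col17a1 was at 0.280, 0.495 and 0.157 FPKM, and the epithelial keratin Krt5 at 0.0298, 0 and 0 FPKM. The epithelial keratin Krt14 was listed at 0 in all 3 libraries. The 7 epithelial markers summed to 0.399, 0.456 and 0.291 FPKM. Their part in the level of Itgb4 was not tested. Itga6 was at 14.97 times the FPKM of Itgb4 in control cells, 11.4 times under NELL2 overexpression and 54.9 times after Fn1 knockdown.

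Of the 3 collagen-binding chains that reached 1 FPKM, 1 was higher and 2 were lower with NELL2 overexpression. After Fn1 knockdown 3 were lower, 1 of them (Itga11) within counting error, beside 6344 of 12574 genes lower overall. Itga11, the main receptor chain for fibrillar collagen on fibroblasts and stromal cells, was at 29.7, 32.2 and 29.1 FPKM in control, NELL2-overexpressing and Fn1 knockdown cells. Its ratio was 1.08 (1.03 to 1.14) with NELL2 overexpression and 0.980 (0.934 to 1.03) after Fn1 knockdown. About 3393 to 3797 fragments stood behind each value, the most of any member. The small difference with NELL2 overexpression lay outside counting error and that after Fn1 knockdown within it. With NELL2 overexpression 43.0% of genes and after Fn1 knockdown 90.4% of genes were at least as far from the control.

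Itga1, a receptor chain for collagen IV and fibrillar collagens on mesenchymal cells, was at 3.69 FPKM in control cells, 3.35 FPKM under NELL2 overexpression and 2.94 FPKM under Fn1 knockdown. The ratio was 0.906 (0.825 to 0.994) in the first comparison, at the edge of counting error, and 0.797 (0.724 to 0.878) in the second, beyond it. At least as far from the control were 43.3% of genes with NELL2 overexpression and 31.5% after Fn1 knockdown. Exons of Itga1 overlap Gm49395, a gene on the same strand for which no value was listed. How reads from the overlap were assigned is not known. Itga10, which is typical of cartilage, was at 1.93, 1.66 and 1.46 FPKM. Its ratio was 0.858 (0.706 to 1.05) with NELL2 overexpression and 0.758 (0.619 to 0.928) after Fn1 knockdown. An overlapping gene on its strand, Gm42957, was at 0.134 FPKM or less. Of 6 cartilage markers, 5 reached 1 FPKM in every library. The summed level of all 6 was 338, 323 and 643 FPKM, most of it the cartilage collagen Col2a1, at 300, 287 and 602 FPKM. After Fn1 knockdown the log2 ratios of Sox9, Col9a1, Acan and Comp were -0.087, 0.00069, 0.14 and 0.25. The part of these markers in the level of Itga10 was not tested.

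Itga2, the collagen receptor chain of platelets and epithelia, was the lowest member in the control and NELL2 overexpression libraries. It was at 0.0920 FPKM in control cells, 0.0888 FPKM under NELL2 overexpression and 0.214 FPKM under Fn1 knockdown, from about 15, 15 and 37 fragments. The ratio of 2.33 after Fn1 knockdown had a counting interval of 1.26 to 4.60. At so few fragments the size of that difference was poorly fixed, and the log2 ratio on the FPKM + 1 scale was 0.15. Its neighbour Itga1 was lower in the same library.

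Of the remaining members, Itga9 was at 2.81 FPKM in control cells, 3.12 FPKM under NELL2 overexpression and 2.44 FPKM under Fn1 knockdown. Its ratio was 1.11 (0.976 to 1.26) with NELL2 overexpression, within counting error, and 0.870 (0.758 to 0.994) after Fn1 knockdown, at the edge of it. Itgb7 was at 3.35, 3.95 and 4.32 FPKM, lowest in the control. Its gene (chr15:102215995-102231944, minus strand) overlaps no other annotated exon. The ratio was 1.18 (0.977 to 1.42) with NELL2 overexpression and 1.29 (1.07 to 1.55) after Fn1 knockdown. The alpha chains known to pair with beta7 were scarce, with Itga4 at 0.355, 0.410 and 0.586 FPKM and Itgae at 0.0374, 0 and 0.0165 FPKM. Itgb7 was at 8.54, 9.64 and 7.18 times their summed FPKM. The pan-leukocyte gene Ptprc was at 0.0633 FPKM or less, and the 8 haematopoietic markers summed to 1.77, 2.46 and 1.51 FPKM. Most of that sum came from Csf1r, at 1.06, 1.23 and 1.06 FPKM, and Adgre1, at 0.426, 0.9499 and 0.273 FPKM, both genes of macrophages. The part of these markers in the level of Itgb7 was not tested.

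**Figure D3:**
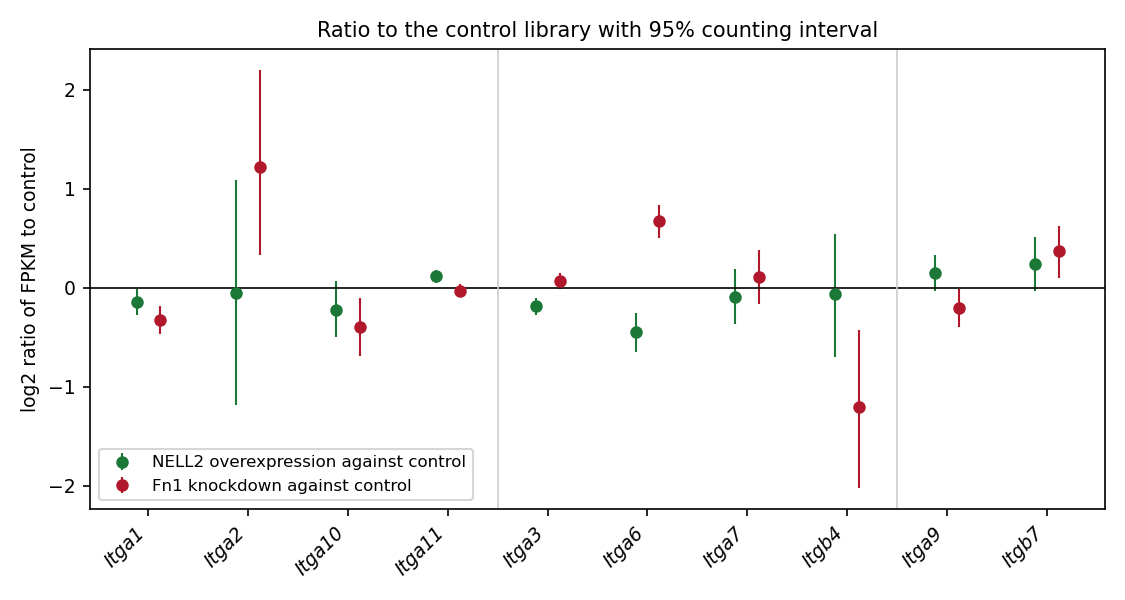
Log2 ratio of FPKM to the control library for each subunit, with NELL2 overexpression in green and Fn1 knockdown in red; bars are 95% counting intervals and the line at 0 is the control level. Itga6 lies below 0 in the first and above 0 in the second, and the wide bars of Itga2 and Itgb4 belong to genes with 46 fragments or fewer in each library.

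Counting error alone separated many genes. Of the 8 members at 1 FPKM or more, 4 had a ratio whose counting interval excluded 1 with NELL2 overexpression (Itga1, Itga3, Itga6 and Itga11), beside 34.2% of 12256 genes with a known length. After Fn1 knockdown there were 5 of 8 (Itga1, Itga6, Itga9, Itga10 and Itgb7), beside 54.1% of 12257 genes. Both counts lie near the background, so nothing about the members as a set was read from them. Itga9 and Itgb7 have several short coding transcripts, and with the median length of these in place of the longest, which lowers the estimated fragments, 3 of 8 remained after Fn1 knockdown (Itga1, Itga6 and Itga10).

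The makeup of the alpha chains was then compared within each library. The 18 alpha subunits summed to 207 FPKM in control cells, 204 FPKM under NELL2 overexpression and 238 FPKM under Fn1 knockdown. The 8 alpha members held 31.8%, 31.5% and 28.5% of this sum, or 65.9, 64.1 and 67.8 FPKM. Their summed level thus moved by a ratio of 1.03 after Fn1 knockdown. This is a net of 0.952 for collagen-binding chains, 1.14 for laminin-binding chains and 0.870 for Itga9. The other alpha subunits moved by 1.20, from 141 to 170 FPKM, mostly through Itga5 (117 to 133 FPKM) and Itgav (21.3 to 33.5 FPKM). With NELL2 overexpression the ratios were 0.973 for the members and 0.989 for the others. Collagen-binding chains made up 17.1%, 18.3% and 14.2% of the alpha sum, and laminin-binding alpha chains 13.3%, 11.6% and 13.3%. Itga9 made up 1.36%, 1.53% and 1.03%. Itga5, the alpha chain of the main fibronectin receptor, held 56.5%, 56.5% and 55.9%. These are mRNA shares and not shares of receptors at the surface.

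**Figure D4:**
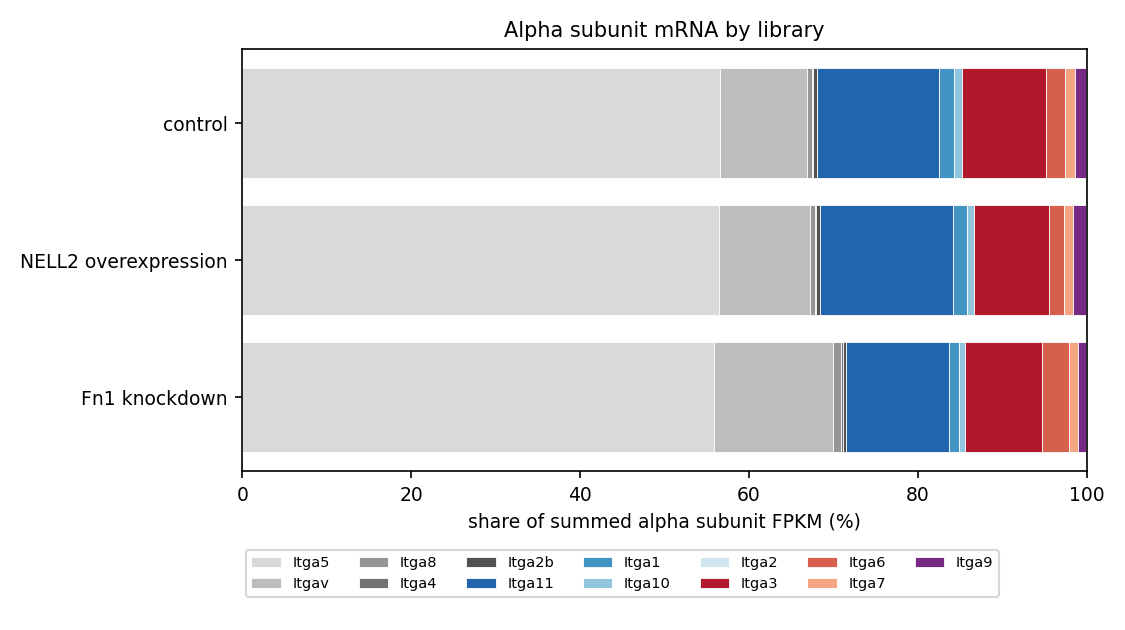
Share of the summed FPKM of alpha subunits (%) in each library, with collagen-binding chains in blue, laminin-binding chains in red, Itga9 in purple and the other subunits in grey; 5 further subunits, each at 0.127% or less, are not drawn. The 8 alpha members hold 31.8% in control cells, 31.5% under NELL2 overexpression and 28.5% under Fn1 knockdown.

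Within each role a single chain led. Itga11 held 83.9% of collagen-binding FPKM in control cells, 86.4% under NELL2 overexpression and 86.3% under Fn1 knockdown. Itga3 held 74.2%, 76.0% and 67.9% of laminin-binding alpha FPKM, and Itga6 held 17.3%, 14.8% and 24.1%. The ratio of Itga3 to Itga6 was 4.29 in control cells, 5.14 under NELL2 overexpression and 2.82 under Fn1 knockdown. Itgb1, the common partner of the alpha members, was at 497, 527 and 624 FPKM. This was 2.40, 2.58 and 2.62 times the sum of all 18 alpha subunits.

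Of 16 other subunits of the integrin family, 6 reached 1 FPKM, led by Itgb1, Itga5 and Itgb5. After Fn1 knockdown all 6 were higher than in the control, with a median log2 ratio of 0.41 and values from 0.18 to 0.63, beside 0.017 over the members, though none was called. With NELL2 overexpression 3 were higher and 3 lower, with a median of 0.0094. Whether the members and the other subunits differ as sets was not tested.

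Some genes for ligands of these receptors were abundant and others were scarce. Of 20 collagen chain genes, 16 reached 1 FPKM, with Col1a1 at 1494, Col1a2 at 897 and Col5a2 at 306 FPKM in the control. With NELL2 overexpression 7 were higher and 9 lower (median log2 ratio -0.032) and none was called. After Fn1 knockdown 7 were higher and 9 lower (median -0.048), and Col2a1 alone was called, at 300 FPKM in control cells, 287 FPKM under NELL2 overexpression and 602 FPKM under Fn1 knockdown, a log2 ratio of 1.003 that lies at the threshold. Of 11 laminin chain genes, 7 reached 1 FPKM, led by Lamb1, Lamb2 and Lamc1 at 60.03, 43.5 and 41.6 FPKM. Of these 2 were higher and 5 lower with NELL2 overexpression (median -0.033), and 3 were higher and 4 lower after Fn1 knockdown (median -0.045), with none called. Among laminin alpha chains, Lama4 was at 32.5, Lama2 at 7.96 and Lama5 at 1.16 FPKM in the control. Lama1 and Lama3 were scarce there, at 0.496 and 0.0383 FPKM. The laminin chains spanned log2 ratios of -0.27 to 0.26 after Fn1 knockdown, in a library where Itga6 was at 0.58.

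Of 15 genes for the ligands of alpha9, beta7 and related receptors, 11 reached 1 FPKM and none was called. Spp1, which codes for osteopontin, was at 2008 FPKM in control cells, 2283 FPKM under NELL2 overexpression and 2727 FPKM under Fn1 knockdown. Tnc, which codes for tenascin-C, was at 278, 291 and 398 FPKM, and the alpha9 ligand gene Emilin1 at 66.0, 72.6 and 71.4 FPKM. Madcam1, the gut homing ligand of beta7, was listed at 0 in all 3 libraries. Of the 11, 6 were higher and 5 lower with NELL2 overexpression (median 0.065), and 7 were higher and 4 lower after Fn1 knockdown (median 0.037), where log2 ratios ran from -0.92 for Npnt to 0.65 for Adam12.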

How the data were processed

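Libraries of polyadenylated RNA were read by the authors from both ends (MGISEQ-2000) and mapped with HISAT2 (GRCm38, per the submitters' processing notes). The deposited values are FPKM per gene, 1 library in each column. The program behind FPKM, the annotation and the use of strand are not given in the sources used here. The study's moderated test could not be applied to 1 library per group, so no p-value was computed.

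Log2 ratios were taken on FPKM + 1 over the whole table. Calls needed a log2 ratio of 1 or more in size and 1 FPKM in either library. The worth of 1 fragment was read from the most frequent low value of FPKM times length among genes with a single GENCODE M21 transcript of 600 bases or more. In such genes 21.7% to 22.5% of low values came within 0.02 of a whole count, so fragments are approximate. Members' fragments used the longest coding transcript, with exact Poisson and binomial intervals (scipy 1.17.1). Members, gene lists and tests were chosen with earlier results of these data known. Named genes were all members, called genes of the lists, the 3 highest of each list in the control, and Itgb1, Fn1 and Nell2. Itga4, Itgae, Itgav, Madcam1, Dst, Col17a1, Npnt, Adam12, the laminin alpha chains, marker genes and overlapping genes fall outside that rule. They were named after their values were seen, for their roles, as the ends of a range or for their part in a sum. Alternatives varied the pseudocount (0.1 and 5), the filter (none and 5 FPKM), the scaling, the fold (1.5) and the length.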

Additional observations from a re-analysis of the deposited data

How the results depend on the processing

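The count of called members was 0 in both comparisons under every alternative run: a pseudocount of 0.1 or 5, no filter, 5 FPKM or more (2 and 3 members left), median-of-ratios scaling, 1.5-fold, and, chosen after seeing the data, a pseudocount of 0.1 with no filter. Removing the filter alone cannot add a call at a pseudocount of 1. No log2 ratio of a single member reached 2-fold in any of them. Only the scaling could have turned a sign, and it turned none. With a pseudocount of 0.1 the values after Fn1 knockdown were 0.66 for Itga6, 0.71 for Itga2 and -0.81 for Itgb4. The median of the members ranged from -0.11 to -0.033 with NELL2 overexpression and from 0.0043 to 0.063 after Fn1 knockdown. The log2 ratio of Itga6 after Fn1 knockdown was 0.37 with a pseudocount of 5. Counted as estimated fragments in place of FPKM, which weighs long transcripts more, the share of the 8 alpha members was 33.9% in control cells, 33.5% under NELL2 overexpression and 29.4% under Fn1 knockdown. No paired analysis was possible because a single library stood for each condition, and leaving any out would remove a group. Depth limits Itga2 and Itgb4 most, with 15 to 46 estimated fragments.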

Other observations

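Of 8 genes for collagen and laminin receptors outside the integrin family, 5 reached 1 FPKM. Rpsa, which codes for a ribosomal protein also described as a laminin receptor, was at 642, 622 and 613 FPKM in control, NELL2-overexpressing and Fn1 knockdown cells. The collagen uptake receptor Mrc2 was at 76.4, 84.6 and 99.8 FPKM, and the laminin receptor dystroglycan, Dag1, at 72.1, 72.0 and 75.9 FPKM. None was called, and the median log2 ratio was 0.052 with NELL2 overexpression and 0.11 after Fn1 knockdown. Tetraspanins, membrane proteins that associate with laminin-binding integrins, were all above 1 FPKM (6 of 6), led by Cd63, Cd81 and Cd9 at 574, 245 and 159 FPKM in the control. None was called, and their medians were 0.0045 and -0.057.

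Genes for proteins that regulate integrin activation or link integrins to actin were also measured. Of 14, 12 reached 1 FPKM, with Fermt2, Tln1 and Ilk at 97.0, 90.8 and 83.5 FPKM in the control. Their medians were -0.021 with NELL2 overexpression and -0.018 after Fn1 knockdown. Lims1, the adaptor that binds integrin-linked kinase, was called after Fn1 knockdown, at 55.7 FPKM in control cells, 59.0 FPKM under NELL2 overexpression and 27.2 FPKM under Fn1 knockdown, a log2 ratio of -1.005 that lies at the threshold. The hemidesmosome list had medians of 0.16 and 0.10 over 4 genes, with none called.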
